A study of Mus musculus with 12 samples.

Results

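Selenium deprivation in the liver of TrspA37G mice was examined by setting the libraries of mice fed 0 ppm selenium against those of mice fed 0.1 ppm. The 4 libraries of this comparison, of 12 in the series, are 1 mRNA library and 1 ribosome-footprint library per diet. They were chosen by their labels, and all 23 selenoprotein genes that the deposited tables list were taken. TrspA37G mice are FVB/N mice that carry 20 copies of a transgene encoding a selenocysteine tRNA with A changed to G at position 37. The sources used here do not give the sex of the mice, the number of mice behind a library or whether their own Trsp gene was present. The mice had 6 weeks of their diet; the labels also give an age of 3 weeks, which is shorter than the diet and so cannot be the age at which livers were taken. The wild-type libraries at 0 and 0.1 ppm served as the comparison. Livers were frozen and homogenised with cycloheximide, which holds ribosomes in place, and footprints are the mRNA pieces that a ribosome shields from RNase 1. Markers of liver cells and the Trsp tRNA are not among the 23 genes, so the labelled tissue and genotype were not checked here.

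Selenoproteins contain selenocysteine (Sec), which is inserted at a UGA codon that would otherwise end translation. The insertion needs a dedicated Sec tRNA, a stem-loop in the mRNA beyond the coding sequence and a supply of selenium. Base 37 lies next to the anticodon and carries an isopentenyl group in the normal tRNA. The A37G form lacks that group, and is known for poor synthesis of the selenoproteins called stress-related. Ribosomes that fail to read the UGA do not reach the codons after it, so footprints before and after the UGA carry different information.

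The sequences around the UGA are shown for the 9 genes with at least 100 footprints both before and after it over the pair of libraries, because the footprint windows divide there. Each line gives the 18 nt that belong to neither window, here placed to end in the UGA, and the codons that follow. The UGA is in capitals as TGA. Sequences are from GENCODE M21 on GRCm38, on the strand of the gene.
Dio1: tttggcagttgcaccTGAccttcatttctt
Gpx1: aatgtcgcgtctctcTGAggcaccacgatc
Gpx4: aacgtggcctcgcaaTGAggcaaaactgac
Seli: aaaccaaactcagatTGActaggaatggaa
Selt: cagatttgtgtatccTGAgggtaccggcgg
Sep15: cttgaagtctgcggaTGAaaattggggagg
Sephs2: tccggcatgaagggcTGAggctgcaaggtc
Sepp1: cttcttcaagccagcTGAtacttgtgtctt
Sepx1: ggacaatcaagattcTGAatatttagcagc
The UGA of Gpx1 lies in exon 1 of 2 at chr9:108339451-108339453, on the plus strand, and is codon 47 of 201. That of Gpx4 lies in exon 3 of 7 at chr10:80054737-80054739, on the plus strand, and is codon 73 of 197. That of Dio1 lies in exon 2 of 4 at chr4:107297700-107297702, on the minus strand, and is codon 126 of 257. These genes therefore leave long stretches after the UGA. Sepx1 has its UGA late, in exon 3 of 5 at chr17:24740158-24740160 on the plus strand, as codon 95 of 116. Seli has it later still, in its last exon, 10 of 10, at chr5:30266964-30266966 on the plus strand, as codon 388 of 398. Sepp1 has 10 Sec codons, and the sequence and windows given here refer to the first, in exon 2 of 5 at chr15:3274848-3274850 on the plus strand. The UGA of Sephs2 lies in its only exon at chr7:127273731-127273733 on the minus strand, as codon 63 of 452. On the plus strand of chromosome 3, the UGA of Selt lies at chr3:58585238-58585240 and that of Sep15 at chr3:144590645-144590647.

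The footprint libraries held 28864210 mapped reads at 0 ppm and 29816461 at 0.1 ppm, and the mRNA libraries 12403067 and 10669213, as recovered from the deposited values. Values are RPKM, reads per kilobase scaled to the mapped reads of the library; for footprints the tables write RPFKM, and their windows are the coding sequence before the UGA (5′) and after it (3′). With 1 library per diet there is no replicate error and no test. Each ratio is given with a 95% interval that covers counting error only, since differences between mice are not in it and reads that carry no molecular identifier are not independent molecules. A gene is called lower or higher where the ratio is at least 1.5-fold and its interval excludes 1, and it is compared where the libraries hold at least 10 reads together in each region used and at least 1 in each. In a tissue, fewer cells of a type and less RNA per cell cannot be told apart.

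Of the 23 genes, 20 could be compared in mRNA, and 6 were called lower without selenium while 0 were called higher. The share of compared genes called in mRNA was 30%, and 18 of the 20 had values below those at 0.1 ppm. The 6 were Dio1, Gpx1, Sepw1, Seli, Txnrd3 and Txnrd2, and the median log2 ratio over all 20 was -0.44. Relative to that median, Dio1, Gpx1 and Sepw1 were still called lower, Seli, Txnrd2 and Txnrd3 were not, and Gpx4 and Sepx1 were called higher. Dio1, the deiodinase that converts thyroxine to the active hormone in liver, stood at 28.8 RPKM at 0 ppm and 135 RPKM at 0.1 ppm. It was 4.68-fold lower (95% interval 4.28 to 5.13). Gpx1, the abundant cytosolic glutathione peroxidase that reduces hydrogen peroxide, stood at 351 and 1125 RPKM. It was 3.20-fold lower (3.10 to 3.31). Sepw1, a small thioredoxin-fold protein, stood at 9.49 and 23.2 RPKM on 85 and 179 reads and was 2.45-fold lower (1.88 to 3.21).

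Seli mRNA, which encodes an ethanolamine phosphotransferase of phospholipid synthesis, stood at 12.3 RPKM at 0 ppm and 24.2 RPKM at 0.1 ppm and was 1.96-fold lower (1.82 to 2.12). Txnrd2, the mitochondrial thioredoxin reductase, stood at 4.95 and 8.14 RPKM and was 1.65-fold lower (1.29 to 2.10). Txnrd3, a thioredoxin reductase known from testis, stood at 1.02 and 1.98 RPKM on 36 and 60 reads and was 1.94-fold lower (1.26 to 3.02). The third reductase, cytosolic Txnrd1, was not called at 29.9 and 31.9 RPKM. Sep15, an endoplasmic reticulum protein of glycoprotein folding, fell just short of the 1.5-fold rule at 87.9 and 131 RPKM, with a log2 ratio of -0.58. With mRNA taken over the coding sequence instead, 8 of 19 genes were called lower, among them Sep15 (-0.62) and Selt (-0.69). Over the whole transcript, the mRNAs of Gpx4 and Sepx1 were the only ones with values above those at 0.1 ppm. Gpx4, which reduces lipid hydroperoxides, stood at 145 and 130 RPKM, and Sepx1, which repairs oxidised methionine, at 395 and 358 RPKM. Sepp1, the secreted selenium carrier made by liver, held the highest level on either diet, at 1494 and 2025 RPKM, and was not called. Sephs2, the enzyme that forms selenophosphate for Sec, was not called either, at 546 and 610 RPKM. Selh had the largest fold after Dio1 but rested on 2 and 8 reads, with an interval of 0.928 to 44.9.

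**Figure D1:**
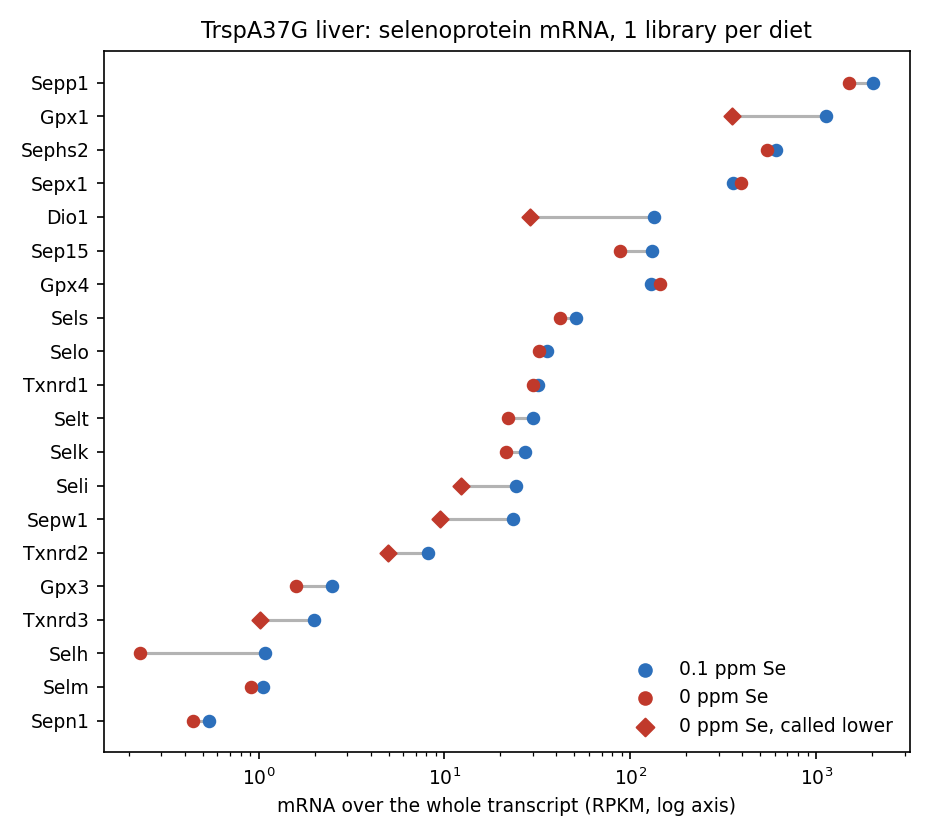
mRNA level of the 20 compared selenoprotein genes in TrspA37G liver (RPKM on a log axis), with 1 point per library, 0 ppm in red and 0.1 ppm in blue; diamonds mark the 6 genes called lower. The longest gaps among the called genes belong to Dio1 (28.8 against 135 RPKM) and Gpx1 (351 against 1125 RPKM), while Gpx4 and Sepx1 have the red point on the right.

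Footprints before the UGA could be compared for 18 genes, of which 8 were called lower and 1 higher without selenium. The share called was 50% in either direction, 44.4% lower and 5.56% higher. The 8 were Dio1, Gpx1, Seli, Selk, Sep15, Sepn1, Sepp1 and Txnrd3, and the median log2 ratio of the 18 was -0.63. Relative to that median, Dio1, Seli and Selk were still called lower, and Sepx1, Sephs2 and Txnrd2 were called higher. Dio1 stood at 23.9 RPFKM at 0 ppm and 86.7 at 0.1 ppm, 3.63-fold lower (3.12 to 4.24). Gpx1 stood at 99.5 and 207 RPFKM, 2.08-fold lower (1.77 to 2.45), and Seli at 23.3 and 60.6 RPFKM, 2.60-fold lower (2.39 to 2.84). Sepx1 went the other way. It stood at 228 RPFKM at 0 ppm and 109 at 0.1 ppm and was 2.10-fold higher without selenium (1.92 to 2.30). Sephs2 was level, at 114 and 114 RPFKM, with a log2 ratio interval of -0.20 to 0.19. Sepp1 stood at 800 and 1247 RPFKM, 1.56-fold lower, and Sep15 at 60.0 and 92.7 RPFKM, 1.55-fold lower. The lower values of Gpx4 (372 and 505 RPFKM) and Selt (29.7 and 41.5 RPFKM) were not called. Selt is a thioredoxin-fold protein of the endoplasmic reticulum.

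Footprints after the UGA were lower over more of the genes. Of 11 genes compared, 9 were called lower and 0 higher, a share of 81.8%, with a median log2 ratio of -2.06. Relative to that median 0 were called lower and 4 higher, Sepx1, Seli, Sephs2 and Sepp1. Centring removes a shared change by construction, since most genes had lower values. The 9 calls are relative to all mapped reads of the library. The 9 were Dio1, Gpx1, Gpx3, Gpx4, Selt, Sep15, Sephs2, Sepp1 and Sepw1. Gpx1 stood at 16.3 RPFKM at 0 ppm and 79.8 at 0.1 ppm, 4.89-fold lower (4.22 to 5.69), and Dio1 at 3.91 and 22.6 RPFKM, 5.79-fold lower (4.18 to 8.19). Gpx4, not called before the UGA, stood at 20.1 and 71.9 RPFKM after it, 3.58-fold lower (3.07 to 4.19). Selt stood at 2.85 and 12.8 RPFKM, 4.48-fold lower (3.09 to 6.66). Sep15 and Sephs2, whose mRNAs over the whole transcript were not called, were called here. Sep15 stood at 35.9 and 150 RPFKM, 4.18-fold lower (3.58 to 4.89), and Sephs2 at 25.8 and 68.5 RPFKM, 2.65-fold lower (2.45 to 2.87). Sepp1 stood at 188 and 328 RPFKM, 1.75-fold lower (1.69 to 1.81). Sepw1 has its UGA at codon 13, inside the 15 codons left out at the start, so it has no 5′ window; its 3′ window held 5 and 35 footprints, 6.78-fold lower (2.64 to 22.2). Gpx3, the plasma glutathione peroxidase, rested on 1 and 12 footprints and was 11.6-fold lower with an interval of 1.72 to 497. Not called were Sepx1, at 41.4 and 40.1 RPFKM on 61 reads each, and Seli, at 166 and 179 RPFKM on 86 and 96 reads in a window of 18 nt.

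Dividing the 3′ by the 5′ density in the same library removes the mRNA level and the library total, and leaves the part of the change that lies between the windows. The 3′/5′ footprint ratio could be compared for 10 genes, and 7 were called lower and 1 higher without selenium. The share called was 80% in either direction, 70% lower and 10% higher, and the median log2 change was -1.32. Selt had the largest called change, from 0.307 at 0.1 ppm to 0.0959 at 0 ppm, 3.20-fold lower (1.95 to 5.31). Sep15 went from 1.62 to 0.598, 2.70-fold lower (2.21 to 3.30). Sephs2 went from 0.598 to 0.226, 2.64-fold lower (2.26 to 3.09), and Gpx4 from 0.142 to 0.0540, also 2.64-fold lower (2.24 to 3.11). The intervals of these 4 genes overlap, so their order is not resolved by the reads. Gpx1 went from 0.385 to 0.164, 2.35-fold lower (1.88 to 2.93). Sepx1 went from 0.369 to 0.182, 2.03-fold lower (1.41 to 2.93), and Dio1 from 0.261 to 0.164, 1.59-fold lower (1.11 to 2.33). Sepp1 was not called, at 0.263 and 0.235; with 4238 and 2631 reads before the UGA its interval was narrow, 1.06 to 1.19-fold lower. Seli was called higher, from 2.95 at 0.1 ppm to 7.11 at 0 ppm, 2.41-fold (1.78 to 3.26). Its 5′ footprints were lower while its 3′ footprints were not called.

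The same ratio in the mRNA libraries, where no ribosome is involved, was called for 0 of 9 genes in either direction (0%), with log2 changes between -0.38 and 0.36. Sephs2 and Sepx1 lay at the lower end, at log2 changes of -0.38 and -0.35, with intervals that exclude 1, and Seli at the upper end on 18 and 21 reads after the UGA. Divided by this mRNA ratio, the 7 lower calls of the footprint ratio stayed at 7, and Seli, at a log2 change of 0.91, was no longer called. The log2 change shrank from -1.40 to -1.03 in Sephs2, from -1.02 to -0.67 in Sepx1 and from -1.44 to -1.30 in Sep15. It grew from -1.68 to -1.88 in Selt and from -1.40 to -1.60 in Gpx4. Dio1 and Gpx1 hardly moved, at -0.65 and -1.24.

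The change in 3′ footprints of a gene is the sum, in log2, of its change in mRNA, in 5′ footprints per mRNA and in the 3′/5′ ratio. Among the 10 genes with all parts, the most negative part was the mRNA in 4, the 3′/5′ ratio in 5 and the 5′ footprints per mRNA in 1. The mRNA led in Dio1, Gpx1, Seli and Sepp1, and the 3′/5′ ratio in Gpx4, Selt, Sep15, Sephs2 and Sepx1. For Dio1 the parts were -2.23 in mRNA, 0.37 in 5′ footprints per mRNA and -0.67 in the ratio, which make -2.53. For Gpx1 they were -1.68, 0.62 and -1.23, which make -2.29. For Sephs2 the parts were -0.16 in mRNA, 0.15 in 5′ footprints per mRNA and -1.40 in the ratio. In this split nearly the whole change lay in the ratio. With mRNA of the 5′ window, its 5′ footprints per mRNA changed by -0.30. Divided by the mRNA 3′/5′ ratio, its footprint ratio changed by -1.03. Selt, at -0.45, -0.03 and -1.68, and Sep15, at -0.58, -0.05 and -1.44, had the same order of parts in the split as Sephs2. Gpx4 had 0.16 in mRNA, -0.60 in 5′ footprints per mRNA and -1.40 in the ratio. Sepx1 ended near 0, at 0.05, because 0.92 in 5′ footprints per mRNA and -1.02 in the ratio cancelled. In Sepp1 the parts were small throughout, at -0.44, -0.20 and -0.17. Gpx3 was led by 5′ footprints per mRNA, but rests on 2 and 9 footprints there and is not called in any part.

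**Figure D2:**
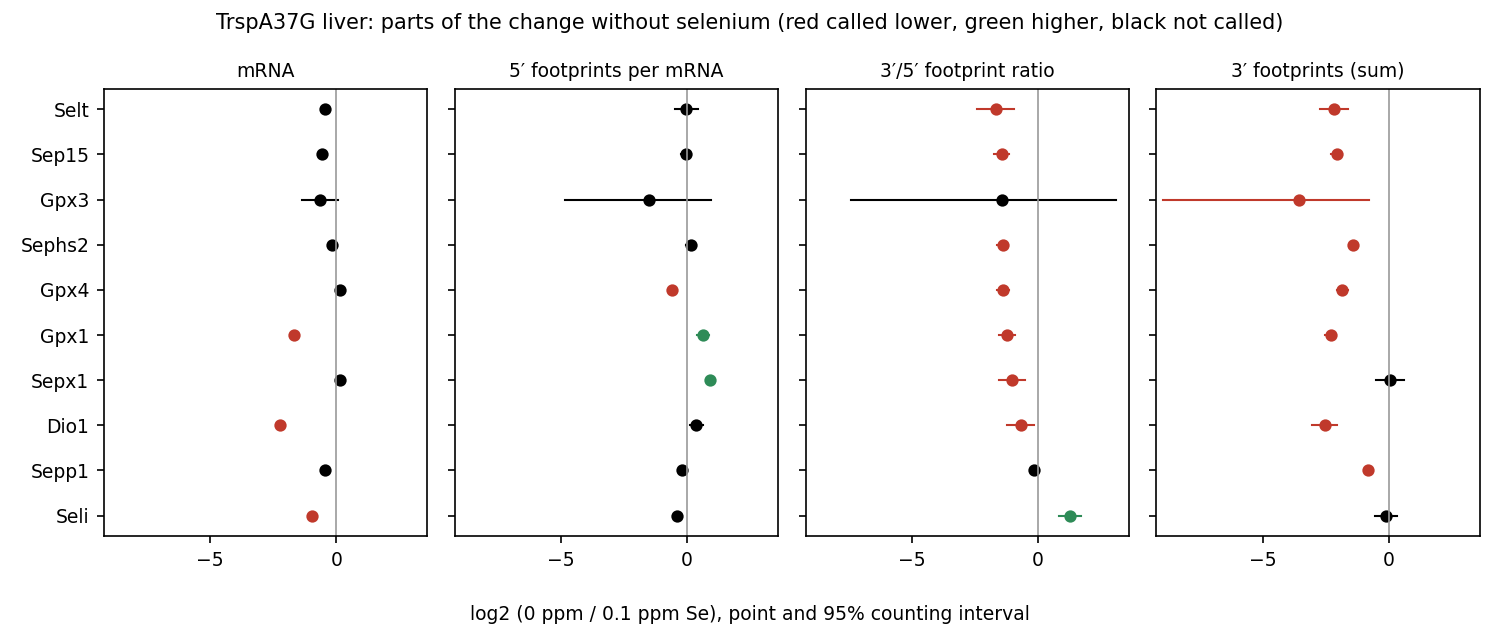
Log2 ratio of 0 to 0.1 ppm in TrspA37G liver for the 10 genes compared in every part, with 1 panel each for mRNA, 5′ footprints per mRNA, the 3′/5′ footprint ratio and their sum, the 3′ footprints; points are ratios, bars 95% counting intervals, and colours mark the calls. Red points are at Dio1, Gpx1 and Seli in the mRNA panel and at 7 genes in the ratio panel, where Seli alone is green; the bars of Gpx3 run widest.

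Footprints before the UGA per mRNA measure how densely the coding sequence before the UGA was occupied. That stretch is nearly the whole coding-sequence window in Txnrd2 (1515 of 1524 nt) and Selk (213 of 225 nt). The measure was called for 5 of 18 genes (27.8%), 2 lower (11.1%) and 3 higher (16.7%). The median log2 change was -0.18. Sepx1 went from 0.304 at 0.1 ppm to 0.577 at 0 ppm, 1.90-fold higher (1.72 to 2.10). Txnrd2 went from 0.568 to 1.12, 1.97-fold higher (1.44 to 2.69), and Gpx1 from 0.184 to 0.283, 1.54-fold higher (1.31 to 1.81). Gpx4 went from 3.89 to 2.57, 1.51-fold lower (1.38 to 1.67). Selk, which sits in the endoplasmic reticulum membrane, went from 0.444 to 0.227, 1.96-fold lower (1.22 to 3.19). With mRNA taken over the 5′ window instead, Gpx1, Gpx4 and Selk were not called, and relative to the median Gpx4 was not. GENCODE M21 holds pseudogenes named after 4 of the genes, Gpx2, Gpx4, Selk and Selt. Pseudogenes under other names were not searched for. The sources used here do not say how reads that match several places were treated, so the values of these 4 genes are less certain.

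In the coding sequence as a whole, footprints per mRNA were called for 10 of 20 genes (50%), 7 lower (35%) and 3 higher (15%). Relative to their median log2 change of -0.31, 1 was called lower. Gpx1 was among the 3 higher, but its footprints lay mainly in the 18 nt that end in the UGA. These held 90.2% of its coding-sequence footprints at 0 ppm (95% exact binomial interval 89.3 to 91.1%) and 79.3% at 0.1 ppm (78.4 to 80.2%), over 3.30% of the window length. The mRNA reads were concentrated there too, at 21.9% and 27.1%. Without these 18 nt the log2 change of Gpx1 coding-sequence footprints per mRNA turned from positive to -0.11.

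The 18 nt were added as a region after the values had been seen, as coding-sequence reads less those of both windows. Their footprint density could be compared for 10 genes, and 4 were called (40%), Dio1, Gpx4 and Selh lower (30%) and Sepx1 higher (10%). Gpx1 stood at 7753 RPFKM at 0 ppm and 11090 at 0.1 ppm, and Sepx1 at 2242 and 1045 RPFKM. Both genes thus had far denser footprints in the 18 nt than in the windows on either diet. Sepx1 kept nearly the same share of its footprints there, 43.3% and 41.8%, beside 26.6% and 26.7% of its mRNA reads. Dio1 was level too, at 9.09% and 9.08%. In 5 further genes of those with at least 100 footprints in both windows, the share of coding-sequence footprints in the 18 nt was larger at 0 ppm. It was 3.35% against 1.85% in Sepp1, 7.99% against 4.11% in Sep15 and 3.55% against 1.97% in Sephs2. In Selt it was 10.8% against 2.56%, on 13 and 7 footprints, and in Seli 3.28% against 1.37%. Gpx4 differed from these, with 1.05% at 0 ppm and 2.07% at 0.1 ppm. A share also rises when footprints in the windows fall, so a larger share is not by itself a denser 18 nt. Density in the 18 nt was not called in any of the 5 genes. Its log2 change was -0.29 in Sep15, -0.21 in Sephs2, -0.0038 in Seli, 0.12 in Sepp1 and 0.94 in Selt. Relative to the 5′ window, density in the 18 nt was called for 3 of 9 genes (33.3%), higher in Seli and Sepp1 (22.2%) and lower in Gpx4 (11.1%). Sepp1, not called in the 3′/5′ ratio, went from 0.383 to 0.650 in this measure, 1.70-fold higher (1.42 to 2.03). In the mRNA libraries the same measure was called for 1 of 7 genes (14.3%), and that was Sepp1 in the opposite direction, from 0.577 at 0.1 ppm to 0.355 at 0 ppm, 1.63-fold lower (1.20 to 2.20).

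**Figure D3:**
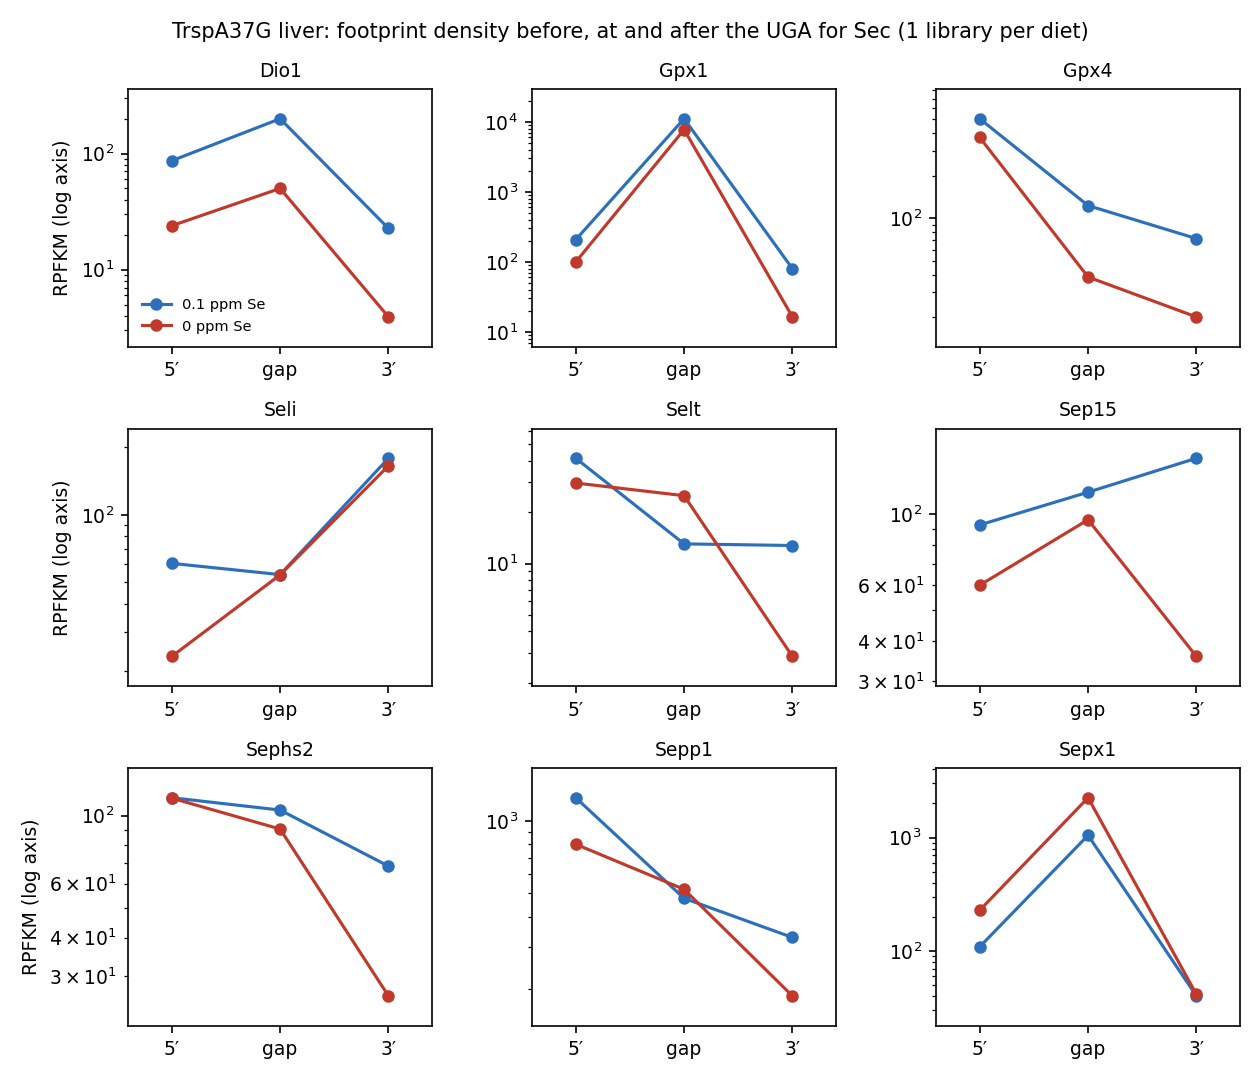
Footprint density (RPFKM on a log axis) in the 5′ window, the 18 nt that end in the UGA (gap) and the 3′ window of the 9 genes with at least 100 footprints in both windows, with 1 point per TrspA37G library, 0 ppm in red and 0.1 ppm in blue. The lines of Sephs2 start together at 114 RPFKM and part after the UGA, and those of Gpx1 and Sepx1 peak in the gap. The Seli lines lie apart in the 5′ window, meet in the gap and stay close in the 3′ window.

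The remaining genes carry less information. Selk, Selo, Sels, Txnrd1, Txnrd2 and Txnrd3 have their UGA so near the end that no 3′ window exists, and for them the change can be split into mRNA and 5′ footprints only. Selk stood at 4.88 and 12 RPFKM in the 5′ window, 2.45-fold lower (1.59 to 3.88), with mRNA that was not called at 21.5 and 27.0 RPKM. Txnrd3 stood at 0.642 and 1.38 RPFKM, 2.16-fold lower (1.43 to 3.31). Txnrd2, called lower in mRNA, was not called in footprints, at 5.53 and 4.63 RPFKM. Not called in either were Txnrd1, with 35.1 and 45.4 RPFKM, Selo, a mitochondrial protein, with 18.5 and 26.5 RPFKM, and Sels, a membrane protein of endoplasmic reticulum quality control, with 70.2 and 80.0 RPFKM. Sepn1, a protein of the endoplasmic reticulum known from muscle, was called lower in 5′ footprints on 12 and 26 reads. After the UGA, Selh had 0 and 3 footprints, Selm 0 and 3 and Sepn1 0 and 4, and a count of 0 allows up to 3 reads, so no difference was detectable there at this depth. Gpx2, Dio2 and Dio3 were not compared, since each had at most 6 reads in any library and region of the comparison.

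The counts by role are read against the shares over all compared genes, which were 30% lower in mRNA, 44.4% lower in 5′ footprints, 81.8% lower in 3′ footprints and 70% lower in the 3′/5′ ratio. None of the groups is shown to stand apart from these shares. Of the glutathione peroxidases compared, 1 of 3 was called lower in mRNA (Gpx1), 1 of 3 in 5′ footprints, 3 of 3 in 3′ footprints and 2 of 3 in the 3′/5′ ratio. Of the thioredoxin reductases, 2 of 3 were called lower in mRNA and 1 of 3 in 5′ footprints. Dio1 was the only deiodinase compared and was called lower in mRNA and in both footprint windows. Of the genes for selenium transport and Sec synthesis, Sepp1 and Sephs2, 0 of 2 were called lower in mRNA, 1 of 2 in 5′ footprints, 2 of 2 in 3′ footprints and 1 of 2 in the ratio. Of the small thioredoxin-fold proteins, Sepw1, Selh and Selt, 1 of 3 was called lower in mRNA, 0 of 1 in 5′ footprints, 2 of 2 in 3′ footprints and 1 of 1 in the ratio. The endoplasmic reticulum proteins were Sep15, Selm, Sepn1, Selk, Sels, Selt and Seli. Of these, 1 of 7 was called lower in mRNA, 4 of 7 in 5′ footprints, 2 of 3 in 3′ footprints, and 2 of 3 in the ratio, where the third was called higher. Of the genes with Sec near the C terminus, Txnrd1, Txnrd2, Txnrd3, Selk, Sels, Selo and Seli, 3 of 7 were called lower in mRNA and 3 of 7 in 5′ footprints. Seli alone has a 3′ window in that group, and it was not called in 3′ footprints and was called higher in the ratio. The stress-related genes were Gpx1, Gpx3, Selh, Sepw1, Sepx1, Selk and Sels. Of these, 2 of 7 were called lower in mRNA, 2 of 5 lower and 1 of 5 higher in 5′ footprints, 3 of 4 lower in 3′ footprints and 2 of 3 lower in the ratio.

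The same diet step in wild-type liver shows where the TrspA37G response differed. The difference of the log2 ratios, TrspA37G minus wild type, was held to the same 1.5-fold rule and counting interval, and differences between mice could not be tested. In mRNA, 3 of 20 genes were called (15%), and each had the more negative change in TrspA37G. Dio1 mRNA stood at 77.6 and 76.8 RPKM in wild type at 0 and 0.1 ppm, so that its log2 difference between genotypes was -2.24 (-2.40 to -2.08). Seli mRNA stood at 18.9 and 16.3 RPKM in wild type, a difference of -1.19 (-1.33 to -1.04). For Dio1 and Seli the TrspA37G mRNA was above wild type at 0.1 ppm, at 135 and 24.2 RPKM. At 0 ppm it was below wild type, at 28.8 and 12.3 RPKM. Gpx3 was at the edge, with a difference of -0.86 (-1.73 to -0.00) on 30 and 40 TrspA37G reads. Gpx1 mRNA, at 893 and 2327 RPKM in wild type, and Sepw1 mRNA, at 13.8 and 41.9 RPKM, were called lower in both genotypes (4 of 20 genes, 20%, were so called in wild type), and their differences, -0.30 and 0.31, were not called.

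For the 5′ footprints, 6 of 18 differences were called (33.3%). Dio1 (-1.88), Seli (-1.48) and Gpx4 (-0.59) had the more negative change in TrspA37G. Wild-type Dio1 stood at 57.9 and 57.3 RPFKM and wild-type Seli at 44.0 and 41.1 RPFKM. The TrspA37G values of Dio1 and Seli were above these at 0.1 ppm and below them at 0 ppm. Sepx1 (1.05), Txnrd1 (0.73) and Txnrd2 (1.12) differed in the other direction. Wild-type Sepx1 stood at 478 and 472 RPFKM, both above the TrspA37G values, and wild-type Txnrd2 at 7.58 and 13.8 RPFKM.

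For the 3′ footprints, 7 of 11 differences were called (63.6%). Dio1 (-1.45), Gpx3 (-4.03), Gpx4 (-0.76) and Selt (-1.20) had the more negative change in TrspA37G, and Gpx1 (1.36), Sepp1 (0.92) and Sepx1 (2.67) the less negative one, shares of 36.4% and 27.3%. Wild-type Gpx1 stood at 70.6 and 890 RPFKM, a log2 change of -3.65, where TrspA37G had 16.3 and 79.8 RPFKM. Wild-type Sepx1 stood at 28.7 and 176 RPFKM, where TrspA37G had 41.4 and 40.1 RPFKM. For both genes the 0.1 ppm value was lower in TrspA37G than in wild type.

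For the 3′/5′ ratio, 5 of 10 differences were called (50%), 1 more negative in TrspA37G and 4 less negative. Selt was the more negative, at -0.96, with wild-type ratios of 0.224 at 0 ppm and 0.369 at 0.1 ppm. Sepx1 (1.61), Seli (1.46), Gpx1 (1.03) and Sepp1 (0.96) were less negative. The wild-type ratio of Gpx1 was 0.197 at 0 ppm and 0.940 at 0.1 ppm, that of Sepx1 0.0600 and 0.373, and that of Sepp1 0.167 and 0.366. Sep15, Sephs2, Gpx4 and Dio1 were not called here. Sep15 in wild type had ratios of 0.633 and 1.63, and Sephs2 of 0.338 and 0.886. The mRNA 3′/5′ ratio gave 0 of 9 such calls (0%). For Seli, however, its difference was 1.13 (-0.10 to 2.35), on few reads after the UGA, beside the 1.46 of the footprint ratio. In the split, over the 10 genes with all parts in both genotypes, the 3′/5′ ratio was the most negative part in 9 in wild type and in 5 in TrspA37G.

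**Figure D4:**
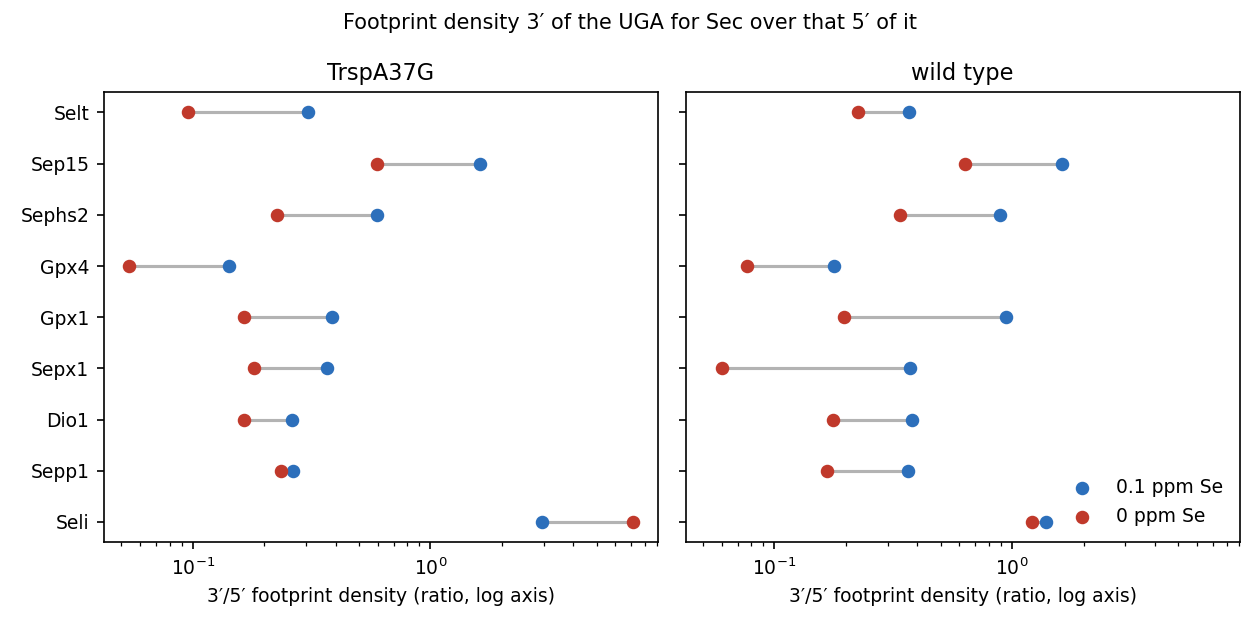
Ratio of footprint density after the UGA to that before it (log axis) for 9 genes in TrspA37G (left) and wild-type liver (right), with 1 point per library, 0 ppm in red and 0.1 ppm in blue. Sep15 and Sephs2 span similar distances in both panels, Gpx1 and Sepx1 a shorter one in TrspA37G, and Seli moves to the right at 0 ppm in TrspA37G, from 2.95 to 7.11.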

How the data were processed

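The authors deposited tables of 23 selenoprotein genes with RPKM values for mRNA and footprints (RPFKM), over the transcript, the coding sequence and its 5′ and 3′ windows, per the file headers; reads were aligned to mm9 with Bowtie, per the submitters' processing notes. The headers state that 15 codons at the start and 3 at the end were left out. The sources used here give no versions, filters or handling of reads matching several places. Mapped reads and window lengths were fitted to make the deposited values whole reads. All 795 values above 0 then lay within 0.001 of a whole read, which the fit requires and which does not check it. The fitted mRNA length was within 5% of the annotated transcript for 18 of 23 genes. The coding-sequence window matched the annotated length less 57 nt for 22 of 23 genes. This is more than the 15 and 3 codons of the headers make. The windows leave out 18 nt, placed here as 6 codons ending in the UGA. The 3′ window of Sepw1 is longer than its coding-sequence window, which this placement allows. Window lengths alone do not fix the placement to the codon, so it is assumed.

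Ratios of RPKM values have exact conditional 95% intervals on reads, or log-normal ones above 2000 reads. Each group has 1 library, so there was no test over samples and a count model was not fitted. Methods were tested on simulated reads. Python 3.11.15, numpy 2.4.6, scipy 1.17.1 and matplotlib 3.10.9 were used. Named with all values are genes called in mRNA or in the 3′/5′ ratio, and those with at least 100 footprints in each window; others are given by counts or reads. Genes, lists and rules were chosen with earlier results of these data known. The libraries at 2.0 ppm served only to recover window lengths; in 1 table a column header differs from its neighbours, and that column is not used in any result. Alternatives were another scaling, other read floors, a 2-fold rule, a pseudocount and other mRNA regions.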

Additional observations from a re-analysis of the deposited data

Results flagged for a closer look

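For 19 results the direction without selenium in TrspA37G liver was opposite to that in wild type, with the difference called and the change called in at least 1 genotype. The count covers the measures described in the report. With 1 library per group the difference was not tested over mice, and values are log2 differences, TrspA37G minus wild type. For Dio1 they were -2.24 in mRNA, -1.88 in 5′ footprints and -2.24 in the 18 nt that end in the UGA; the wild-type changes in mRNA and 5′ footprints, 0.01 and 0.02, were barely on the other side of 0. For Seli they were -1.19 in mRNA, -1.48 in 5′ footprints, 1.46 in the 3′/5′ footprint ratio and 1.83 in the ratio of the 18 nt to the 5′ window. In the mRNA libraries the 3′/5′ ratio of Seli differed by 1.13 and the other ratio by -1.04, neither called. For Txnrd2 they were 1.12 in 5′ footprints, 1.52 in 5′ footprints per mRNA and 1.52 in coding-sequence footprints per mRNA. For Gpx1 they were 0.64 in 5′ footprints per mRNA, where the wild-type change was -0.01, and 1.18 in coding-sequence footprints per mRNA. For Gpx3 they were -4.03 in 3′ footprints, on 1 and 12 TrspA37G reads, and -2.25 in coding-sequence footprints per mRNA. For Gpx4 the value was -1.75 in the 18 nt, with a wild-type change of 0.07. For Sepx1 they were 2.67 in 3′ footprints, with a TrspA37G change of 0.05, 1.81 in the 18 nt, 1.12 in coding-sequence footprints per mRNA and 0.76 in the ratio of the 18 nt to the 5′ window, with a TrspA37G change of 0.03.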

How the results depend on the processing

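No paired analysis was possible because each group has 1 library, and for the same reason no library could be left out. Centring each measure on its median over the compared genes removed log2 medians of -0.44 in mRNA, -0.63 in 5′ footprints and -2.06 in 3′ footprints. It left 3 genes lower and 2 higher in mRNA, 3 lower and 3 higher in 5′ footprints, and 0 lower and 4 higher in 3′ footprints. It left 1 lower in 5′ footprints per mRNA and 1 lower in coding-sequence footprints per mRNA. The sign turned to 0.22 for Gpx4, 1.95 for Seli, 0.66 for Sephs2 and 1.26 for Sepp1 in 3′ footprints, and to 0.0065 for Sep15 and 0.63 for Sephs2 in 5′ footprints. This follows from the construction, since most genes had lower values. The 3′/5′ ratios do not use the library scaling. A 2-fold rule left 3 lower in mRNA, 0 lower and 0 higher in 5′ footprints per mRNA, and 2 lower and 0 higher in coding-sequence footprints per mRNA. With mRNA of the 5′ window, 0 genes were lower in 5′ footprints per mRNA. Divided by the mRNA ratio, 0 genes were higher in the 3′/5′ footprint ratio. Without the 18 nt, an alternative chosen after seeing the data, Gpx1 coding-sequence footprints per mRNA turned to -0.11. The other 61 counts were within 1.5 times the reported ones. Depth limits the 3′ footprints of Gpx3, Selh, Selm, Sepn1 and Sepw1.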
